A study of Mus musculus with 2 samples.

Results

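The 1123 nuclei described here came from the standard single-nucleus library of C2C12 cells, a mouse myoblast line that fuses into myotubes when serum is withdrawn. They were the barcodes with over 750 unique molecular identifiers (UMIs, the tags that mark single captured molecules) in the kallisto matrix that were also present among the STAR barcodes, out of 12265 STAR barcodes in both libraries of the series. Each of these nuclei was counted by 2 routes from the same reads. STAR aligned the reads to the genome, and kallisto matched them to annotated transcripts, so the log2 ratio of STAR to kallisto UMIs of a gene served as a proxy for reads that lie in its introns. The standard nuclei were prepared with Chromium v3 without in situ polyadenylation. The other library was made from C2C12 nuclei that were tailed with yeast poly(A) polymerase (yPAP) before capture, and 1328 of its nuclei met the same rule. Each group was 1 library, so no difference between genes or libraries could be tested against replicates, and the interval of a single ratio covers counting error only. The interval of a median is taken over genes, which are not replicates, and describes their spread. The sources used here do not say whether the STAR matrix counts reads over whole gene bodies, introns included, or how it treats strand.

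A gene is copied by RNA polymerase into a precursor that holds introns, and the spliceosome removes them, mostly while transcription goes on. Mature mRNA is exported to the cytoplasm, so nuclei are enriched for precursors and for RNAs that stay in the nucleus. Droplet kits prime reverse transcription with oligo(dT), which pairs with the poly(A) tail and can also pair with runs of A inside introns.

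Over the 1123 nuclei the kallisto matrix held 1382804 UMIs, after rounding the sum of each gene, and the STAR matrix held 6237950. The pooled ratio was 4.51 (log2 2.17, 95% interval 2.17 to 2.18). In single nuclei the ratio ranged from 2.07 to 6.35, with a median of 4.46 and quartiles of 4.13 and 4.79, and it had almost no rank relation to depth (Spearman rank correlation of -0.019 with kallisto UMIs over 1123 nuclei of 1 library). Kallisto totals ran from 750 to 8862 UMIs per nucleus with a median of 996, and STAR totals from 2092 to 40218 with a median of 4478. The member with the lowest total summed to 750 only after rounding. Mitochondrial genes took at most 3.73% of the kallisto UMIs of a nucleus. No member barcode was shared with the members of the other library. The 10 myoblast markers held 1276 kallisto and 6740 STAR UMIs in all, with desmin (Des, 636 and 1752) the most counted in kallisto and the adhesion molecule Ncam1 (235 and 3695) in STAR, whereas 4 macrophage markers held 10 and 44, 3 endothelial markers 36 and 59, 3 neuron markers 1 and 118 and 2 adipocyte markers 2 and 6. Nearly all of the neuron signal was in STAR, at the long genes Syt1 (1 and 70) and Rbfox3 (0 and 43).

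Of 55414 listed genes, 10203 had at least 50 UMIs in both matrices together, of which 9774 were protein-coding, 345 were long noncoding RNA (lncRNA) genes and 84 were of other classes. These genes held 98.2% of STAR and 97.7% of kallisto UMIs, and 17299 further genes had a UMI but fell under the minimum. The protein-coding gene at the median had 6.46 times as many STAR as kallisto UMIs (log2 2.69), with quartiles of 2.03 and 3.62 on the log2 scale. A gene was called genome-rich when its log2 ratio lay at least 1 above that median and its 95% interval lay above it, and transcript-rich in the opposite case. By this rule 2383 genes were genome-rich, which is 23.4% of those tested, and 1421 were transcript-rich, which is 13.9%. The call counts of gene lists and families below are to be read against these shares. Kallisto counts were small, with a median of 33 UMIs per tested gene. Only 8573 of the 10203 genes had 10 or more kallisto UMIs, and a gene below that passed the minimum through its STAR count. Of the 8573 genes, 1290 were genome-rich, or 15.05%. Relative ratios below are log2 ratios minus 2.69, so that 0 is the median protein-coding gene, and those of other sets of barcodes are taken against the median of that set.

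**Figure D1:**
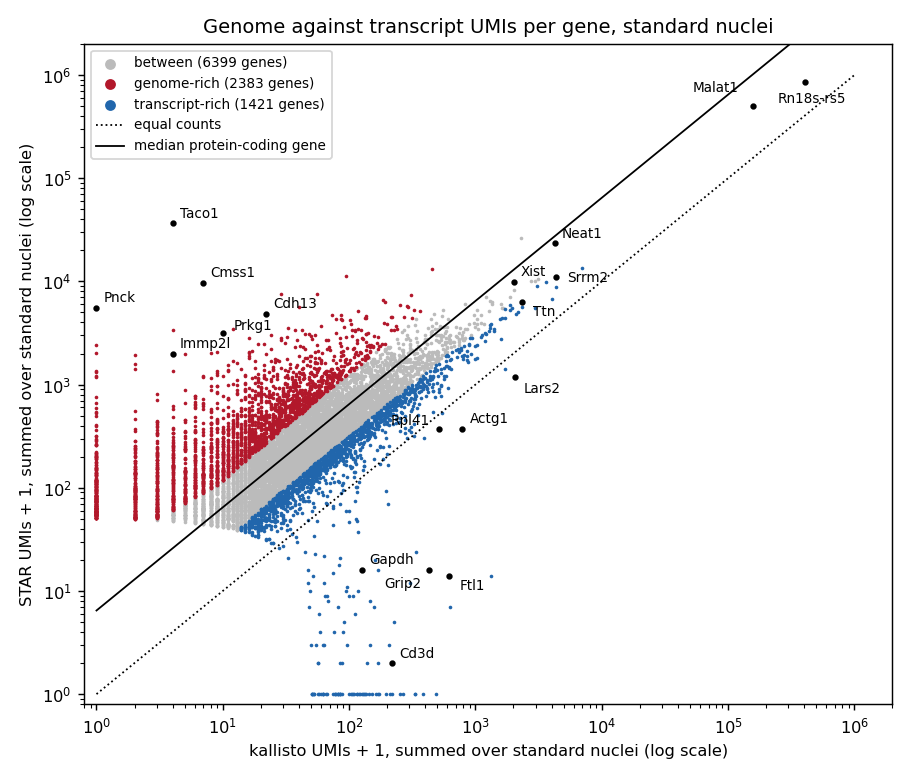
STAR UMIs plus 1 (vertical axis) against kallisto UMIs plus 1 (horizontal axis), each summed over the 1123 standard nuclei on log scales, for the 10203 tested genes. The solid line marks the median protein-coding ratio of 6.46 and the dotted line equal counts; Taco1 and Pnck lie far above the solid line, Malat1 and Srrm2 below it, and Cd3d, Ftl1 and Grip2 below the line of equal counts.

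The ratio was higher in genes with more intron. For the 68 single-exon protein-coding genes the median log2 ratio was 1.52 (95% order-statistic interval 1.19 to 1.75), a 2.87-fold excess of STAR over kallisto UMIs with no intron to count. For the 9673 protein-coding genes with introns it was 2.71 (2.68 to 2.74), or 6.53-fold. Of the single-exon genes, 41 of the 68 were transcript-rich while 0 were genome-rich. Genes with a retained-intron transcript in the annotation lay lower relative to genes of like intron length (median -0.11, 6390 genes) than genes without (0.23, 3283 genes). A further 33 genes had introns that were all covered by an exon of another annotated transcript, and their median was 1.54 (1.31 to 1.97). Single-exon genes included the immediate early factor Jun (294 kallisto and 644 STAR UMIs) and the linker histone gene H1f5 (475 and 765), named after its values were seen.

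Across quintiles of total intron length the median log2 ratio went from 1.89 (1.86 to 1.93) in genes with up to 7591 bases of intron to 2.32, 2.72 and 3.21 in the middle quintiles and 4.08 (4.02 to 4.14) in genes with 80022 bases or more. The share of genome-rich genes went from 1.45% in the shortest quintile to 60.4% in the longest, and the share of transcript-rich genes from 35.8% to 1.19%. Genes with at least 500 kb of intron stood highest, with a median log2 ratio of 5.59 (5.24 to 5.80), or 48.0-fold, and 170 of 187 genome-rich. The 1935 genes of the longest quintile took 27.3% of all STAR UMIs but 11.1% of all kallisto UMIs. The Spearman rank correlation between the ratio and intron length was 0.64 across these 9673 genes, against 0.17 for exon length and 0.18 for the number of introns. The ratio was also lower in genes with more kallisto UMIs (rank correlation of -0.52), which are its own denominator. Genes share the same nuclei and reads and are not replicates, so these correlations are descriptions.

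**Figure D2:**
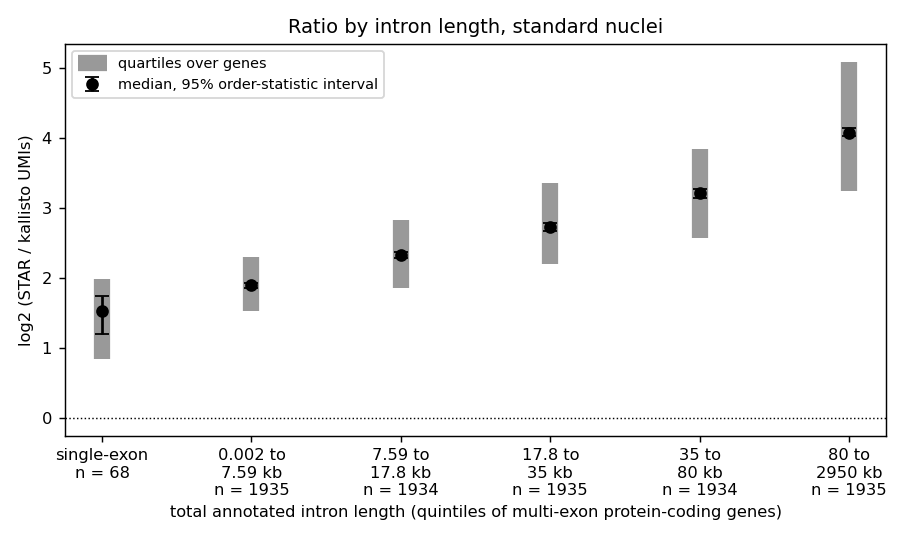
Log2 ratio of STAR to kallisto UMIs (vertical axis) in single-exon genes and in quintiles of total intron length (horizontal axis, with gene numbers). Dots are medians with 95% intervals and grey bars are quartiles over genes; the medians go from 1.52 to 4.08.

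Within the nuclei, the longest-intron quintile made up a median of 35.6% of protein-coding STAR UMIs, with a range from 24.4% to 50.7%, and 20.2% of protein-coding kallisto UMIs. Nuclei with a higher protein-coding ratio had a larger STAR share in those long genes (rank correlation of 0.43 over 1123 nuclei, both taken from the same STAR counts). The share of Rn18s-rs5, an 18S ribosomal RNA gene, went the other way with the ratio over all genes (rank correlation of -0.43) and little with the protein-coding ratio (rank correlation of -0.079).

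Runs of A inside introns, where oligo(dT) could prime, were counted on the strand of the gene in the GRCm39 genome. A run was at least 10 A in a row. Such runs occurred in 7636 of the 9673 genes with introns, 66167 runs in all, and T-runs of the same length, which on the sense strand would not pair with oligo(dT), occurred 101581 times. The longest intronic run of 7 genes is shown to give the scale of these sites, with the run in capitals and 25 bases before and 10 after in lower case. The first 5 genes were genome-rich and the last 2, Ttn and Arhgap22, had over 150 kb of intron but low ratios.
Immp2l, chr12:41224940-41225017, plus strand: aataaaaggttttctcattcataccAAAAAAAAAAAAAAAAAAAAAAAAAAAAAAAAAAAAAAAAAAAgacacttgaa
Kirrel3, chr9:34520488-34520560, plus strand: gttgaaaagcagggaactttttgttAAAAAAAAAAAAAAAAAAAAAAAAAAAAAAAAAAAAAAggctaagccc
Cdh13, chr8:119891939-119892012, plus strand: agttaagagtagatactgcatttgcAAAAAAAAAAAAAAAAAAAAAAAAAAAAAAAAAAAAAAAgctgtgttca
Arl15, chr13:114081228-114081292, plus strand: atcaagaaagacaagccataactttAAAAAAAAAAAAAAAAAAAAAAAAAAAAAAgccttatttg
Cmss1, chr16:57406431-57406491, minus strand: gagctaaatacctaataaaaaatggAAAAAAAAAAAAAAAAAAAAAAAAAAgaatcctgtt
Ttn, chr2:76696172-76696235, minus strand: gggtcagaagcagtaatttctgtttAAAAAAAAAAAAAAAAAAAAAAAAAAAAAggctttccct
Arhgap22, chr14:33072744-33072792, plus strand: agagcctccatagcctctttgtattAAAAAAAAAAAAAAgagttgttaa
The longest run measured 43 A in Immp2l, 38 in Kirrel3, 39 in Cdh13, 30 in Arl15, 26 in Cmss1, 29 in Ttn and 14 in Arhgap22. Long runs were present in the introns of Ttn too, which held 20 of them, against 83 in Immp2l. High ratios also occurred with short runs in genes not shown above. The longest run was 13 A in Atg4a (log2 ratio 10.9) and 10 A in Wtap (8.07), each with 2 runs. In Lrmda and Nkain2, also not shown, the longest runs were 36 and 51 A.

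The number of A-runs followed the ratio (rank correlation of 0.61), but so did the number of T-runs (rank correlation of 0.59). The median number of A-runs per gene also went from 0 in the shortest quintile of intron length to 15 in the longest. Within quintiles of intron length, the density of A-runs and that of T-runs were related to the ratio differently in short genes. Each quintile was split into 3 equal groups by density, with ties split by gene order. In the shortest quintile the lowest and the middle group both had a median density of 0, for A-runs and for T-runs. The middle group there had a median log2 ratio of 1.81 for A-runs and 1.89 for T-runs. In the shortest quintile the group with the most A-runs per base had a median log2 ratio of 2.11 (2.07 to 2.16) against 1.82 (1.76 to 1.86) in the group with the fewest. In the next quintile these groups stood at 2.53 and 2.13, and in the middle quintile at 2.91 and 2.52. Density of T-runs gave smaller steps there, 2.02 against 1.80, 2.46 against 2.16 and 2.78 against 2.63. In the longest quintile A-run density made little difference (3.94 in the densest group against 4.11), and genes with dense T-runs had lower ratios (3.66 against 4.39). After subtracting the median ratio of 20 bins of intron length, rank correlation with A-run density was 0.13 and with T-run density 0.029. Base composition moves with both kinds of run, and its part in these values was not tested.

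**Figure D3:**
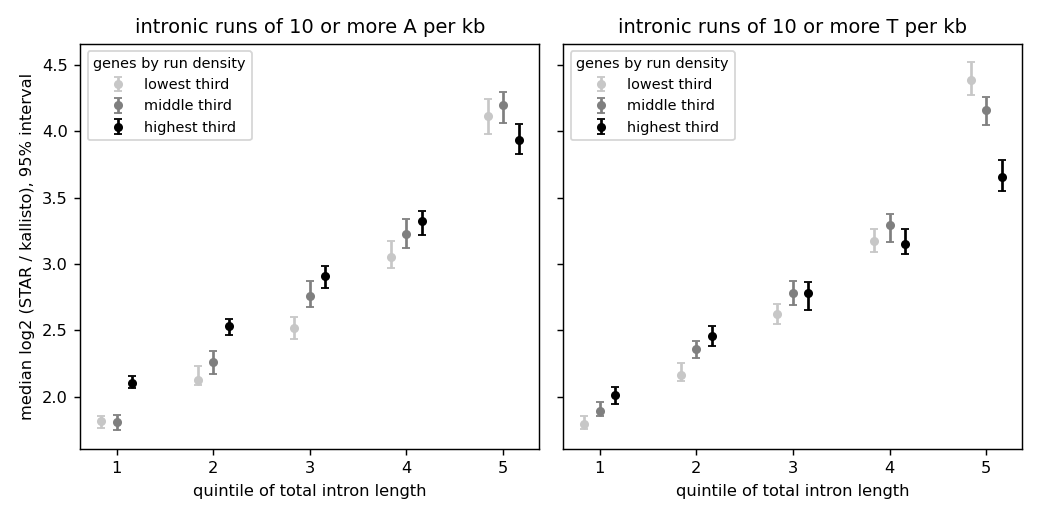
Median log2 ratio of STAR to kallisto UMIs with 95% intervals (vertical axis) by quintile of total intron length (horizontal axis), with genes split into 3 equal groups by density of A-runs (left) or T-runs (right) of 10 or more bases. In quintiles 1 to 4 the densest A-run group is highest, and in quintile 5 the densest T-run group is lowest at 3.66.

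The protein-coding genes with the largest genome excess fell into a group with very long introns and a group with short ones. The long group held Immp2l, a subunit of the mitochondrial inner membrane peptidase, with 3 kallisto and 1994 STAR UMIs over 926 kb of intron (log2 ratio 9.38, interval 7.83 to 11.7). Arl15, a small GTPase, had 3 and 1984 UMIs (9.37), Kirrel3, an immunoglobulin-family adhesion protein, had 4 and 1992 (8.96), and Lrmda had 1 and 1589 (10.6). Nkain2 had 0 kallisto and 764 STAR UMIs, at least 255-fold higher in STAR when 0 is set to a floor of 3 UMIs. These long genes spread few molecules over much sequence, with 0.64 to 5.52 STAR UMIs per kb of intron against a median of 10.3 over all genes with introns. Atg4a, an autophagy protease, had 1 and 1930 UMIs over 86.6 kb of intron, and 52.25% of its transcript 31-mers, the word length of kallisto, also occurred in other genes.

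Few short-intron genes were genome-rich (53 of 2560 protein-coding genes with under 10 kb of intron, 2.07%), but some of these stood at the top of all genes. Taco1, a translational activator of mitochondrial cytochrome c oxidase, had 3 kallisto and 36756 STAR UMIs with 6.17 kb of intron, the highest ratio of all protein-coding genes (log2 ratio 13.58, interval 12.03 to 15.86). Pnck, a calmodulin-dependent kinase, had 0 and 5547 UMIs with 1961 bases of intron, at least 1849-fold higher in STAR. The cortical neuron factor Tbr1 (0 and 1186) was a further one. Wtap, a subunit of the RNA methylation complex (28 and 7544), had 21001 bases of intron. The STAR counts of these 4 genes came to 208 to 5958 UMIs per kb of intron, and Taco1, Pnck and Tbr1 held no intronic run of 10 A. Cmss1 lay between these groups, with 6 and 9693 UMIs over 303 kb. The counts were spread over the nuclei. Taco1 had a STAR UMI in 1119 of 1123 nuclei with at most 183 in 1 nucleus, and Pnck in 1075. Across nuclei the STAR share of Taco1, Cmss1 and Wtap moved with that of Rn18s-rs5 (rank correlation of 0.58, 0.60 and 0.49), whereas the shares of the long genes Immp2l and Prkg1 had a rank correlation of -0.20 and -0.25. The source of these reads was not tested.

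At the other end stood genes that kallisto counted and STAR did not. The T cell receptor component Cd3d had 217 kallisto UMIs and 1 STAR UMI, Zbed6 had 383 and 0, the G protein subunit gene Gnb2 had 334 and 0, and Hoxc9 had 219 and 0. For ferritin light chain (Ftl1) the counts were 611 and 13, for the scaffold gene Grip2 424 and 15, and for the ephrin receptor gene Epha5 340 and 23. Noct (202 and 69), cytoplasmic actin Actg1 (784 and 371) and the mitochondrial leucyl-tRNA synthetase gene Lars2 (2044 and 1180) completed, together with Gm4631 (208 and 0) and Vmn1r168 (300 and 11), the 12 protein-coding genes with the lowest upper interval bound among those with at least 200 UMIs. Gapdh, the glycolytic enzyme, was under that minimum with 126 and 15.

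In all, 139 genes had more kallisto than STAR UMIs, of which 86 were protein-coding. Of these 139, 80 overlapped another gene on the same strand and 75 shared 10% or more of their 31-mers with other genes. Either held for 77.7% of them against 30.5% of all tested genes. Among genes with introns, more kallisto than STAR UMIs were found in 5.79% of those sharing 10% or more of their 31-mers and in 0.155% of those sharing under 1%. Reads that match several genes can be dropped or moved by either route, so these low ratios were not taken as mature RNA. Cd3d, Grip2, Epha5 and Lars2 had no same-strand overlap and shared at most 1.56% of 31-mers. Only annotated transcripts of listed genes were compared, so matches elsewhere were not looked for. In the tailed nuclei kallisto counts were higher for Lars2 (97017) and Grip2 (1364) and lower for Cd3d (116) and Epha5 (87). The source of the reads counted at these genes was not tested.

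Zeros were uneven in the same way. The 238 tested genes with 0 kallisto UMIs included 166 protein-coding and 57 lncRNA genes with a median intron length of 170 kb. The 53 genes with 0 STAR UMIs had a median of 1.80 kb, and 46 of them overlapped a gene on the same strand or shared 10% or more of their 31-mers.

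Among gene families, ribosomal proteins were the largest transcript-rich group. Of 82 cytosolic ribosomal protein genes 62 were tested, 49 were transcript-rich and 2 genome-rich, and the median gene had 1.85 times as many STAR as kallisto UMIs (relative log2 ratio -1.80, interval -2.10 to -1.59). Rpl41 had 510 and 370 UMIs, Rpl4 459 and 863 and Rpl8 562 and 1206. The genome-rich members were Rpl17 (5 and 125) and Rpl11 (8 and 124). These genes have a median of only 1.06 kb of intron, but they also lay below genes of like intron length, with a median difference of -0.92 after subtracting the median of the length bin. Of the 62 genes, 48 share 10% or more of their 31-mers with other genes, so their ratios are uncertain.

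Genes without introns or made outside the nucleus stood near them. Of 15 mitochondrially encoded genes 8 were tested and 7 were transcript-rich, with a median of -1.97. Of the 8, 4 share 10% or more of their 31-mers with other genes, among them mt-Nd4 at 62.8%. The large mitochondrial ribosomal RNA mt-Rnr2 had 4052 and 6676 UMIs, mt-Nd4 had 95 and 127 and mt-Cytb 100 and 162, whereas mt-Rnr1 had 280 and 1049 and was not called. Only 5 of 55 replication-dependent core histone genes, which end in a stem-loop rather than a poly(A) tail, reached the minimum. Of these 4 were transcript-rich, among them H2ac24 (205 and 253) and H2ac8 (114 and 90), and all 5 share 10% or more of their 31-mers. H2bc6 (8 and 86), annotated with 33.0 kb of intron, was not called.

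Housekeeping groups with short introns lay below the median. Translation factors had a median of -0.90, with 14 of 38 transcript-rich and 4 genome-rich. The elongation factor Eef1a1 (540 and 535), of whose 31-mers a share of 49.8% occurs elsewhere, was lowest and the initiation factor subunit Eif3h (26 and 651) highest. Nuclear-encoded oxidative phosphorylation genes had a median of -0.75 with 24 of 63 transcript-rich and 4 genome-rich, from Ndufa13 (50 and 0) to Ndufa12 (1 and 94), both subunits of complex I. Proteasome and chaperonin subunits had -0.57, with 6 of 38 transcript-rich, or 15.8%, and 4 genome-rich, or 10.5%. Once intron length was subtracted these medians were -0.11, -0.072 and -0.082, close to other genes of like length. Host genes of snoRNAs, small RNAs released from introns of their hosts, had a median of -1.01 with 16 of 31 transcript-rich and 2 genome-rich, and they stayed at -0.81 after subtraction over the 15 hosts that are protein-coding. Their annotation holds the snoRNAs as genes of their own inside the host body, and all 31 overlap a gene on the same strand. The lncRNA hosts Gas5 (112 and 726) and Snhg1 (129 and 690) were not called.

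Splicing factors lay slightly below the median. SR proteins and CLK kinases, which choose splice sites and are regulated by intron retention, had a median of -0.49 with 5 of 27 transcript-rich and 0 genome-rich. The nuclear speckle scaffolds Srrm2 (4330 and 11020) and Son (1937 and 5558) and the factor Srsf11 (2094 and 4828) were transcript-rich, and all lay below genes of like length, by 1.44, 0.90 and 1.21. The short-intron members Srsf2 (173 and 940), Srsf5 (214 and 1083) and Srsf7 (129 and 852), with up to 3.68 kb of intron, and the kinase Clk1 (187 and 1597) lay above genes of like length by 0.76, 0.66, 0.93 and 0.95. hnRNP proteins had a median of -0.45 (8 of 31 transcript-rich, 1 genome-rich), from Hnrnpul2 (253 and 352) to Hnrnpf (28 and 565), with Rbm25 (3076 and 8976) the most counted. Relative to genes of like intron length, SR proteins and CLK kinases had a median of -0.0001 and hnRNP proteins of 0.074, close to other genes.

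At the genome-rich end were receptors and signalling genes with long introns. Of 69 tested adhesion and guidance receptor genes 45 were genome-rich and 3 transcript-rich, with a median relative ratio of 1.82 (1.28 to 2.58), or 22.8-fold. Of the 45, 23 had under 10 kallisto UMIs and passed the minimum through their STAR count. Among the 42 members with at least 10 kallisto UMIs 22 were genome-rich, or 52.4%, with a median of 1.10. Cdh13, a cadherin anchored by a lipid, had 21 and 4858 UMIs, Cdh18 18 and 2487, Ptprm 10 and 1544, and the axon guidance receptors Robo1 12 and 1105 and Unc5c 30 and 1387. Cdh15, the M-cadherin of myoblasts, with 16.2 kb of intron, was transcript-rich at 96 and 276. So were the laminin receptor subunit Itga7 (228 and 579) and Epha5. GEFs and GAPs, which switch small GTPases of the cytoskeleton on and off, had a median of 0.97, with 29 of 58 genome-rich and 4 transcript-rich, and 23 of the 51 with at least 10 kallisto UMIs were genome-rich. Arhgef3 (7 and 884) was highest and Fgd4 (28 and 45) lowest, while Trio (447 and 4311) and Arhgap22 (1361 and 6062) were not called. Relative to genes of like intron length the receptors had a median of 0.30 and the GEFs and GAPs of -0.36.

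Of the tested genes of TGF-beta, BMP and activin signalling 14 of 32 were genome-rich and 2 transcript-rich, with a median of 0.79 (-0.094 to 1.63). Over the 29 with at least 10 kallisto UMIs it was 12 genome-rich and a median of 0.71. The receptors Tgfbr2 (38 and 667), Acvr1 (40 and 1058), Bmpr2 (37 and 677) and Bmpr1a (17 and 864), the effector Smad3 (14 and 580) and the ubiquitin ligases Smurf1 (35 and 1064) and Smurf2 (21 and 1134) were genome-rich. The inhibitor Smad7 (190 and 528) and the common partner Smad4 (300 and 852) were transcript-rich, and the feedback gene Pmepa1 (233 and 1253) and the protease Bmp1 (387 and 1477) were not called. Relative to genes of like intron length the list stayed at 0.53.

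Transcription factors of muscle and mesenchyme had a median of 0.83 (-0.036 to 1.42), with 11 of 31 genome-rich and 2 transcript-rich. Of the 28 with at least 10 kallisto UMIs 9 were genome-rich, or 32.1%. Runx1 had 183 and 6534 UMIs, Runx2 83 and 2850, Eya4 78 and 3173 and Zeb1 106 and 2189, and all 4 were genome-rich. The short gene of the myoblast determination factor Myod1 had 13 and 60 (relative log2 ratio -0.49), and Tcf3, its dimer partner, had 243 and 634 and was transcript-rich. Myog had 2 and 16 UMIs and was under the minimum.

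Of 42 tested structural muscle genes, 10 were transcript-rich, or 23.8% against 13.9% of all tested genes, and 9 genome-rich, or 21.4%, close to the 23.4% of all tested genes. Of the 9, 5 had under 10 kallisto UMIs and passed the minimum through their STAR count. Among the 33 members with at least 10, 4 were genome-rich, or 12.1% against 15.05% of all such genes. The median of the 42 was -0.51. Titin (Ttn), the giant spring of the sarcomere, had 2328 and 6335 UMIs over 161 kb of intron. Its ratio of 2.72-fold (log2 1.44) was close to the single-exon median of 2.87-fold and within that median's interval. With a gene minimum of 200 UMIs the single-exon median was 0.97 on the log2 scale, below Ttn. The ratio of Ttn lay 2.72 on the log2 scale below genes of like intron length. Ttn also holds 118 kb of exon, and exon length did not enter the bins, so its part in this gap was not tested. Embryonic myosin Myh3 (77 and 165), desmin (636 and 1752) and cardiac troponin T (Tnnt2, 131 and 398) were transcript-rich as well, and nebulin (Neb, 52 and 190, 215 kb of intron) was not called but lay 2.30 below its length bin. Dystrophin (Dmd, 5 and 397) and delta-sarcoglycan (Sgcd, 8 and 1296), both of the membrane complex and with over 1 Mb of intron, were genome-rich, as were the calcium channel subunit Cacna2d1 (269 and 4531) and the receptor kinase Musk (14 and 402).

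Collagens had introns as long as many genome-rich genes, with a median of 106 kb, but a median relative ratio of -0.43. Of 22 tested, 2 were genome-rich and 2 transcript-rich, or 9.09% each. Against genes of like length they lay lower, by a median of 0.85. The fibrillar chains Col1a2 (2956 and 10077), Col1a1 (655 and 2071), Col3a1 (738 and 2789) and Col5a1 (704 and 2972) lay 1.02, 0.64, 0.88 and 1.68 below their bins. Col8a1 (12 and 821) and Col4a5 (23 and 416), a network-forming and a basement membrane chain, were genome-rich. Other matrix glycoproteins had a median of -0.069, with 12 of 48 genome-rich, or 25%, and 5 transcript-rich, or 10.4%. Of the 12, 4 had under 10 kallisto UMIs, and 8 of the 43 with at least 10 were genome-rich, or 18.6%. Fibronectin (Fn1, 1099 and 4746) and versican (Vcan, 1023 and 5328) were not called, and Loxl2 (32 and 20) was at the low end.

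Chromatin regulators resembled collagens. Their 81 genes had a median intron length of 66.3 kb and a median of -0.23, which was -0.73 relative to genes of like length. Of the 81, 7 were genome-rich, or 8.64%, and 9 transcript-rich, or 11.1%, against 23.4% and 13.9% of all tested genes. The remodeller Atrx (1860 and 5923, 110 kb of intron) and Chd3 (804 and 1935) were transcript-rich, and the deacetylase Hdac8 (4 and 663) was the highest. Cell cycle lists lay between. DNA replication genes had a median of -0.44, with 9 of 58 transcript-rich, or 15.5%, and 6 genome-rich, or 10.3%. The polymerase alpha subunit Pola2 (295 and 360) was the lowest. Mitosis genes had -0.37, with 6 of 57 transcript-rich, or 10.5%, and 2 genome-rich, or 3.51%. They ran from the kinetochore protein Cenpf (927 and 1981) to Ect2 (47 and 872). The proliferation marker Mki67 (1405 and 3424) was transcript-rich and Top2a (630 and 3002) was not called. Genes of p53 and cell cycle control had -0.44 (6 of 27 transcript-rich, 2 genome-rich), with Plk2 (1328 and 3825) and Gadd45g (515 and 837) transcript-rich and Cdk6 (75 and 1303) genome-rich.

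Immediate early and heat shock genes had a median of -0.63 with 9 of 30 transcript-rich and 0 genome-rich. The chaperones Hspa8 (112 and 100) and Hsp90aa1 (306 and 344) had the lowest ratios and Hsp90ab1 (880 and 2395) the most UMIs, and all 3 share 10% or more of their 31-mers. Their introns are short, and relative to genes of like length the list was at 0.27. Actin and SRF target genes had -0.62 (7 of 28 transcript-rich, 2 genome-rich), with Actb (806 and 2383) and vimentin (Vim, 1314 and 3561) transcript-rich and Cnn3 (29 and 816) genome-rich. Nuclear pore and karyopherin genes had a median of 0.37 (11 of 47 genome-rich, the same 23.4% as all tested genes, and 3 transcript-rich), from the GTPase Ran (131 and 162) to the import receptor Kpna2 (4 and 262), of whose 31-mers 9.93% and 66.0% occur in other genes. Of the 11, 4 had under 10 kallisto UMIs, and 7 of the 43 with at least 10 were genome-rich, or 16.3%.

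**Figure D4:**
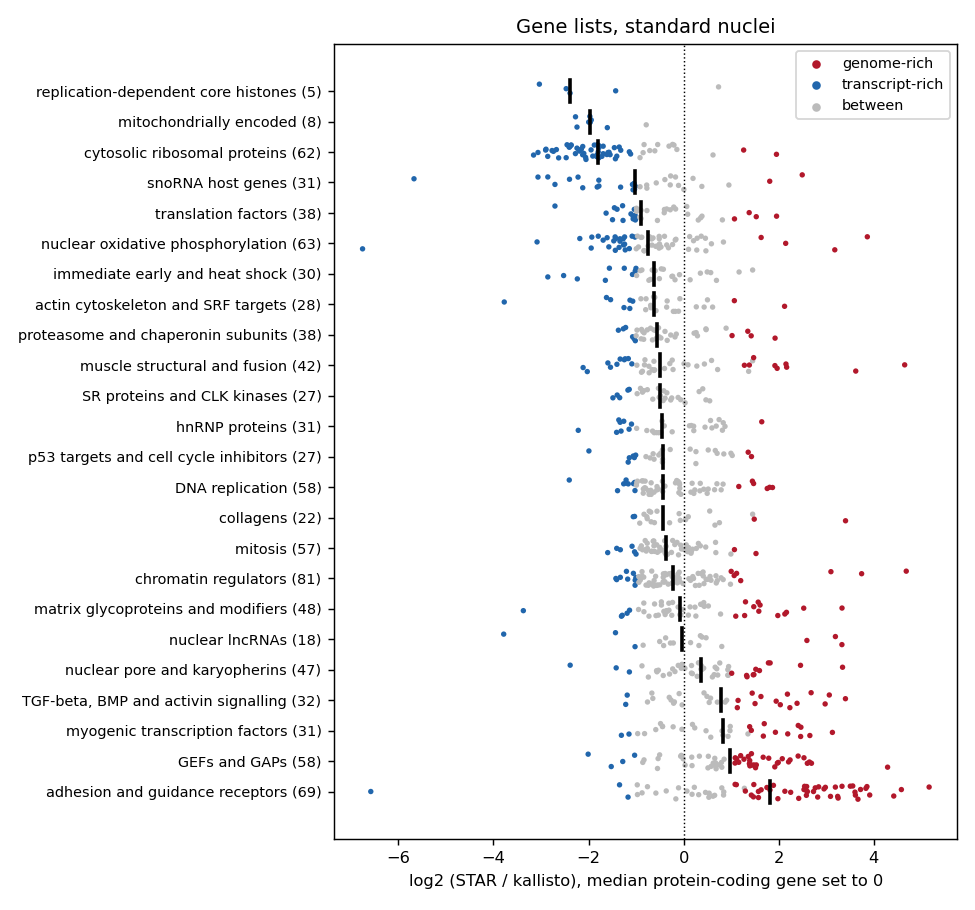
Relative log2 ratio of STAR to kallisto UMIs (horizontal axis, median protein-coding gene at 0) of the tested members of 24 gene lists, with the number tested in brackets; dots are genes coloured by call and black bars list medians. The medians run from -2.39 for core histones to 1.82 for adhesion and guidance receptors.

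Grouping protein-coding genes by the letters of their symbol gave 163 roots with at least 8 tested genes, which were looked at after the values were known. Besides Rpl and Rps (medians -1.80 and -1.43), the lowest were Nop, proteins of the nucleolus (-1.28, 5 of 8 transcript-rich), and Eef (-0.95). Further up, DEAD-box helicases (Ddx) had -0.72 with 10 of 30 transcript-rich, the replicative helicase root Mcm -0.81, Chd remodellers -0.67 and mitochondrial ribosomal proteins -0.60 (Mrpl, 11 of 35) and -0.63 (Mrps, 6 of 23). Chd and Mcm genes also lay below genes of like intron length, with adjusted medians of -1.16 and -0.45, while Mrpl and Mrps had 0.078 and -0.077. Among the highest were cadherins (Cdh, 2.99, 8 of 10 genome-rich), the sugar transferases Galnt (1.48, 5 of 8) and St (1.47, 9 of 14), phosphodiesterases (Pde, 1.44, 10 of 14), semaphorins (Sema, 1.36, 8 of 12) and the Rac activators Dock (1.08, 6 of 9). Cdh stayed at 1.44 above genes of like length, whereas Pde was at 0.040 and Dock at -0.36. The ubiquitin-conjugating root Ube, with 16 of 35 genome-rich and a median of 0.89, was 0.86 above genes of like length.

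RNA classes outside protein-coding genes spanned the whole range. Pooled lncRNA UMIs had a ratio of 3.71, which Malat1 dominated, but the median lncRNA gene had a log2 ratio of 4.14, and 176 of 345 were genome-rich and 48 transcript-rich. Over all tested genes 23.4% were genome-rich and 13.9% transcript-rich. Of the 345, 57 had 0 kallisto UMIs. They passed the minimum through STAR alone, and their ratios rest on the floor of 3 UMIs. Malat1, a lncRNA of nuclear speckles, had 156729 and 498891 UMIs and was transcript-rich (relative log2 ratio -1.02). The paraspeckle lncRNA Neat1 (4236 and 23558), the X-inactivation RNA Xist (2004 and 9964) and the imprinted RNA H19 (365 and 1763) lay 0.22, 0.38 and 0.42 below the median and were not called. Of the 18 tested genes on the list of nuclear lncRNAs 3 were genome-rich, Pvt1 (72 and 4673), Airn (40 and 2361) and Lncpint (53 and 2065), and 3 transcript-rich, Malat1, Kcnq1ot1 (330 and 790) and Mir100hg (196 and 92), and their median was -0.035. The highest lncRNA ratios were those of Gm30835 (3 and 3357), Gm26618 (0 and 2433), Gm48099 (0 and 2043), Gm19951 (0 and 1349) and 4933432K03Rik (0 and 1311). The lowest were Gm26705 (623 and 6), Mir22hg (207 and 2), ENSMUSG00000115801 (1327 and 13) and Gm49708 (226 and 4), followed by Mir100hg.

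The ribosomal RNA gene Rn18s-rs5 alone had 405885 and 864790 UMIs, a ratio of 2.13. It made up 9.45% of the surplus of STAR over kallisto UMIs, and Malat1 7.05%, Taco1 0.757%, Gm47283 (2290 and 26354) 0.496% and Neat1 0.398%. The proteoglycan enzyme gene Ext1 (450 and 13146) and the factor Rreb1 (94 and 11310), named after their values were seen, followed. Gene models still to be experimentally checked (TEC) had more kallisto than STAR UMIs, 9520 kallisto and 2536 STAR UMIs and 21 of 25 tested genes transcript-rich, and processed pseudogenes had 2819 and 2115 with 8 of 10. Ribosomal RNA made up 29.4% of kallisto and 13.9% of STAR UMIs, and protein-coding genes 55.5% and 74.7%.

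The ratios were much the same in droplets of the standard library that were not retained. The 7351 other STAR barcodes, with 750 or fewer kallisto UMIs, had a pooled ratio of 4.82 and a protein-coding median of 2.85 on the log2 scale against 2.69, though barcodes were split by kallisto UMIs, which are part of the ratio. Across 9771 protein-coding genes tested in both sets the relative ratios had a rank correlation of 0.95, and 95.03% lay within 1 of each other. Taco1 had a relative log2 ratio of 10.18 against 10.89 in the retained nuclei, Ttn of -1.30 against -1.25 and the ribosomal protein list a median of -1.63 against -1.80.

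In the in situ polyadenylated nuclei the pooled ratio was 5.86 against 4.51. The median protein-coding gene stood at 2.60 against 2.69 on the log2 scale. Single-exon genes had a median of 0.91 (0.58 to 1.34, 94 genes) against 1.52, and genes with introns 2.61 against 2.71, but the gene sets differ. Over the 49 single-exon genes tested in both libraries, a comparison added after the data were seen, the medians were 1.40 in the tailed and 1.35 in the standard nuclei, and over 8149 genes with introns 2.58 and 2.71. The rank relation with intron length was weaker, with a rank correlation of 0.53 against 0.64. Over 8221 protein-coding genes tested in both libraries the relative ratios had a rank correlation of 0.86, and 87.4% lay within 1 of each other. Of 1997 genome-rich genes of the standard nuclei that were tested in both, 1333 were genome-rich in both libraries, of 1649 in the tailed nuclei, and 704 genes were transcript-rich in both, of 1121 and 948. The ribosomal protein list lay at -1.27 against -1.80, the adhesion receptors at 1.57 against 1.82 and the GEFs and GAPs at 0.53 against 0.97, while mitochondrially encoded genes stood at -1.96 against -1.97 and collagens at -0.65 against -0.43. Core histone genes, of which 43 were tested in the tailed library against 5, had -2.61. Of the 182 genes with at least 500 kb of intron tested in both libraries 102 had a lower and 80 a higher relative ratio in the tailed nuclei. Immp2l had 5.12 against 6.68 and Cdh13 4.25 against 5.16, while Sgcd had 5.71 against 4.65 and Dmd 3.77 against 3.62. Of the genes with the largest genome excess, Taco1 (11.8 against 10.9), Cmss1 (11.8 against 7.97) and Wtap (8.30 against 5.38) stood higher in the tailed nuclei, and Atg4a (3.98 against 8.22) and Lrmda (6.14 against 7.94) lower. With 1 library a group none of these differences could be tested, and enzyme, incubation and library cannot be told apart.

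**Figure D5:**
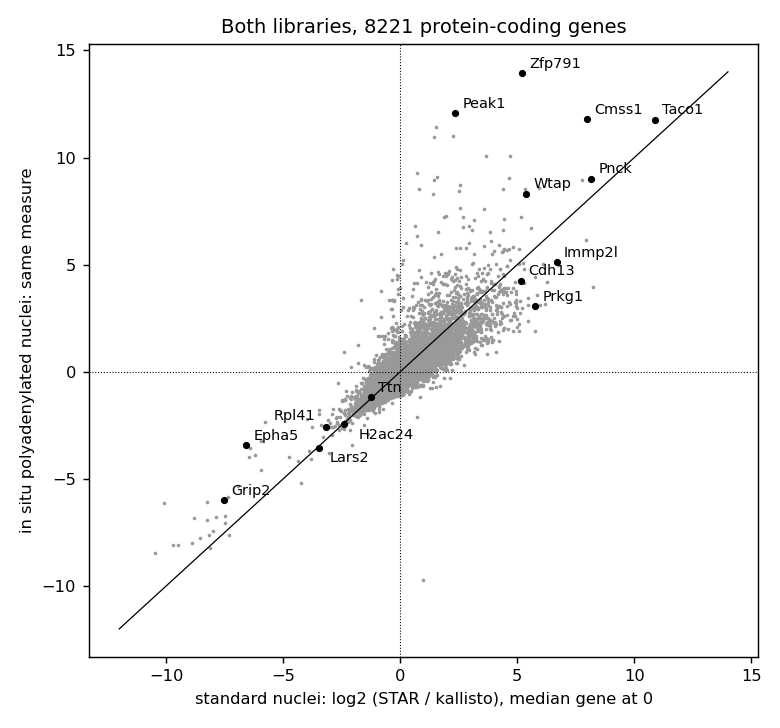
Relative log2 ratio of STAR to kallisto UMIs in in situ polyadenylated nuclei (vertical axis) against standard nuclei (horizontal axis) for 8221 protein-coding genes, each dot a gene, with the diagonal marking equal values. Most genes follow the diagonal (rank correlation 0.86), Taco1 and Pnck are far up in both libraries, and Peak1 and Zfp791 lie well above the diagonal.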

How the data were processed

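Nuclei of C2C12 cells were profiled in 2 libraries of 1 sample each. Per the labels, the authors trimmed reads with cutadapt 3.4, aligned them to GRCm39 with STAR 2.7.10a and pseudoaligned them with kallisto 0.48.0 and bustools 0.41.0, and the study's methods name GENCODE M28 and at most 50 loci per STAR read. As deposited, kallisto values are estimated counts (2.65% of the entries in the standard library were not whole). STAR values, also deposited unscaled, are whole UMI counts of fewer barcodes. Neither was normalized. Reads that fit several genes may be split or dropped, which changes ratios of genes with near copies.

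UMIs were summed per gene over members, with kallisto sums rounded. Each log2 ratio has an exact 95% interval from the binomial split of its Poisson counts, and a count of 0 was set to 3. Both matrices count the same reads, so the interval is a description. Doublets were not called; leaving out the deepest 5% of nuclei was an alternative. Of 55414 genes, 54749 matched GENCODE M39 by identifier. Introns were bases of a gene body outside all exons of transcripts older than the TAGENE set. Length-adjusted ratios subtract the median of 20 equal bins of intron length. 31-mers were compared between transcripts of listed genes. No test was made, and nuclei and genes were not treated as replicates.

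The members, the 24 lists and the 44 fixed genes were chosen with earlier results of these data known. Named genes were the 12 protein-coding and 5 lncRNA genes with the highest lower and the lowest upper interval bound (at least 200 UMIs), the 2 most counted and the highest and lowest members of each list, the fixed genes and the 5 with most STAR UMIs. Some of these genes are not reported here. Every other named gene was picked after its values were seen. Code was tested on simulated data with numpy, scipy and pandas. Alternatives changed the nuclei, the gene minimum, the call rule, the centring, overlaps, pseudocount and A-run length. Leaving out genes that share 31-mers, taking introns from every M39 transcript, rounding the totals, limiting lists to members with at least 10 kallisto UMIs and limiting classes to genes tested in both libraries were added after the data were seen.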

Additional observations from a re-analysis of the deposited data

Results flagged for a closer look

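Of the 8445 genes tested in both libraries, 3 were called in opposite directions, transcript-rich in the standard nuclei and genome-rich in the in situ polyadenylated nuclei. They were named after their values were seen, and the difference was not tested, since each group is 1 library. The pseudogene 4632415L05Rik had 43 kallisto and 108 STAR UMIs in the standard nuclei (relative log2 ratio -1.36, interval -1.89 to -0.82) and 11 and 3391 in the tailed nuclei (5.67, 4.83 to 6.68). A430005L14Rik had 46 and 93 (-1.68, -2.20 to -1.13) against 8 and 490 (3.34, 2.35 to 4.56), and it shares 15.3% of its 31-mers with other genes. Hsdl1 had 18 and 54 (-1.11, -1.90 to -0.25) against 3 and 76 (2.07, 0.47 to 4.38), which rests on 3 kallisto UMIs.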

How the results depend on the processing

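No paired analysis was possible because there was only 1 library in a group, and no replicate could be left out. Called genome-rich genes and transcript-rich genes numbered 5710 and 193 when ratios were centred on single-exon genes, 1293 and 583 when the interval had to lie wholly past 2-fold, and 1429 and 872 with a gene minimum of 200 UMIs, and transcript-rich genes numbered 872 without same-strand overlaps. Centred on single-exon genes, 3 gene lists had a median below 0 instead of 19. Of the 16 that changed sign, the 10 whose interval had lain below 0 were translation factors 0.27, oxidative phosphorylation 0.42, proteasome 0.60, immediate early genes 0.54, SR proteins 0.68, snoRNA hosts 0.15, actin and SRF targets 0.55, chromatin regulators 0.94, DNA replication 0.73 and mitosis 0.80, and the others were hnRNP 0.71, muscle 0.66, collagens 0.74, p53 0.73, matrix 1.10 and nuclear lncRNAs 1.13. The sign also changed for Actb (0.041), Atrx (0.15), Ccnd1 (0.11), Cdh15 (0.00021), Cenpe (0.084), Col1a1 (0.14), Col6a1 (0.11), Eif4a1 (0.15), Malat1 (0.15), Plk2 (0.0029) and Rbm25 (0.022). When every gene needed at least 10 kallisto UMIs, chromatin regulators stood at 0.022, with a multi-exon median that was also lower, at 2.45. With the centre of the main results kept, the 79 chromatin regulators with at least 10 kallisto UMIs had a median of -0.234. All 81 had -0.228, so leaving out low-count members alone did not change the sign. The pooled log2 ratio was 2.20 over 1500 UMIs per nucleus or with over 3000 STAR UMIs, 2.24 over every STAR barcode and 2.16 without the 5% deepest nuclei. The single-exon median was 1.10 over 1500 UMIs and 0.97 with a gene minimum of 200. The multi-exon median was 2.83 over every STAR barcode, 2.74 with over 3000 STAR UMIs, 2.76 with a gene minimum of 200, 2.45 with at least 10 kallisto UMIs, 2.58 without overlaps and 2.65 with a pseudocount of 1. Rank correlation with intron length was 0.66 over 1500 UMIs, 0.63 without the deepest nuclei, 0.62 with a gene minimum of 20, 0.65 with 200, 0.61 without overlaps and 0.65 with the pseudocount. Rank correlation with A-run density was 0.15 for runs of at least 8 and 0.084 for at least 15. The protein-coding median of the other barcodes was 2.64 with at least 10 kallisto UMIs, 2.75 without overlaps and 2.89 without genes sharing 31-mers, an alternative chosen after seeing the data. That of the tailed nuclei was 2.67 and 2.46 with gene minimums of 20 and 200, 2.28 with at least 10 kallisto UMIs and 2.50 without overlaps. The causes were not tested.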
